A study of Saccharomyces cerevisiae with 18 samples.

Results

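The genes described are 33 that encode the enzymes of ergosterol and fatty acid synthesis in budding yeast. They were chosen by name: the mevalonate and ergosterol pathway, the fatty acid synthase and its carboxylase, the desaturase OLE1, the elongases and a pair of acyl-CoA synthetases. All 33 were among the 6606 open reading frames (ORFs) of the deposited count table, and 25 of them passed a filter on low counts and were tested, out of 2856 tested ORFs. The rule for choosing them used no measured value, but it was made with earlier results of these data known.

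Poly-A RNA was sequenced from 4 heterozygous diploid strains with 3 libraries each and from a wild-type with 6. Each heterozygote had 1 copy of a chromosome I gene replaced and the other left, and is written here as SEO1/- (YAL067C), GIP4/- (YAL031C), FUN26/- (YAL022C) and FUN14/- (YAL008W). All strains grew in YPD, a rich glucose medium, at 30 °C in log phase (optical density 0.2 to 1.0), and the drug G418 was left out. The labels do not give the number of clones per strain. Separate cultures are not stated for the replicates, and a p-value here speaks only of the spread among libraries, which can be technical. In a bulk culture, less RNA per cell and fewer cells that make a transcript cannot be told apart.

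Ergosterol is the main sterol of fungal membranes. Its synthesis starts from acetyl-CoA, passes through mevalonate, farnesyl diphosphate, squalene and lanosterol, and several of its later steps use molecular oxygen. Fatty acids are built from acetyl-CoA and malonyl-CoA, then desaturated, elongated and activated for membrane lipids. In yeast the transcription factors Upc2 and Ecm22 act on ergosterol genes when sterol is low, Mga2 and Spt23 act on OLE1, and Ino2 with Ino4 acts on fatty acid and phospholipid genes.

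Some facts of the series bear on every value. Total counts per library ran from 52293.5 to 132618 in the heterozygotes and from 66764.5 to 116519.5 in wild-type. The libraries of wild-type replicates 1 and 2 differed less than sampling noise would make them (chi-square per ORF 0.959, against 1.976 to 9.158 in the other 14 wild-type pairs) and were counted as 1 library, so wild-type has n = 5. Wild-type values below are given in the order 1 and 2 together, then 3, 4, 5 and 6. In the wild-type replicate 3 library, 27 of 1053 well covered ORFs lay more than 5 times below their lowest value elsewhere, FAS2 among them, while no other library had such an ORF. The replaced gene averaged 9.79 ± 9.02 CPM in GIP4/- against 57.0 ± 22.7 in wild-type for GIP4, 136 ± 65.0 in FUN26/- against 269 ± 117 in wild-type for FUN26, and 164.5 ± 28.7 in FUN14/- against 309 ± 51.2 in wild-type for FUN14 (SD, n = 3 and 5). SEO1 had no count in its own strain and 0 to 19.9 CPM in wild-type, too few reads to check it. The labels give the haploid strain BY4741 as background for every library, while the deposited wild-type columns carry the name of the diploid BY4743. The summed level of 5 a-specific mating genes was 15.2 to 152 CPM over the 12 heterozygote libraries and 878 to 1454 CPM in wild-type, and that of 5 haploid-specific genes was 17.4 to 174 CPM in the heterozygotes and 751.5 to 1445 CPM in wild-type. Mating type or ploidy and the replacement can therefore not be told apart in any comparison with wild-type.

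Levels are counts per 1e6 of the scaled library size (CPM) over the last 200 bases of each ORF. Every window has the same length, so levels of different genes are per equal length, but reads do not cover all windows evenly and a window holds at most 201 counts. FAS2, which encodes the alpha subunit of fatty acid synthase, had the highest mean level over the 17 libraries, 1558 ± 460 CPM (SD). HMG2, an HMG-CoA reductase, followed at 1054 ± 207 CPM, and ERG13, the HMG-CoA synthase, at 645 ± 147 CPM. The lowest were ERG28, a scaffold of the sterol demethylation enzymes, at 25.1 ± 15.5 CPM, ERG27, a sterol ketoreductase, at 31.5 ± 19.8 CPM, and ERG8, the phosphomevalonate kinase, at 33.1 ± 17.2 CPM. FAS1, whose protein assembles with that of FAS2, averaged 162 ± 68.7 CPM, so a window level does not stand for the amount of a subunit. The mean levels of HMG2 and ERG13 differed by more than their SDs, while those of ERG13 and its neighbour ELO1 (633 ± 154 CPM) did not.

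**Figure D1:**
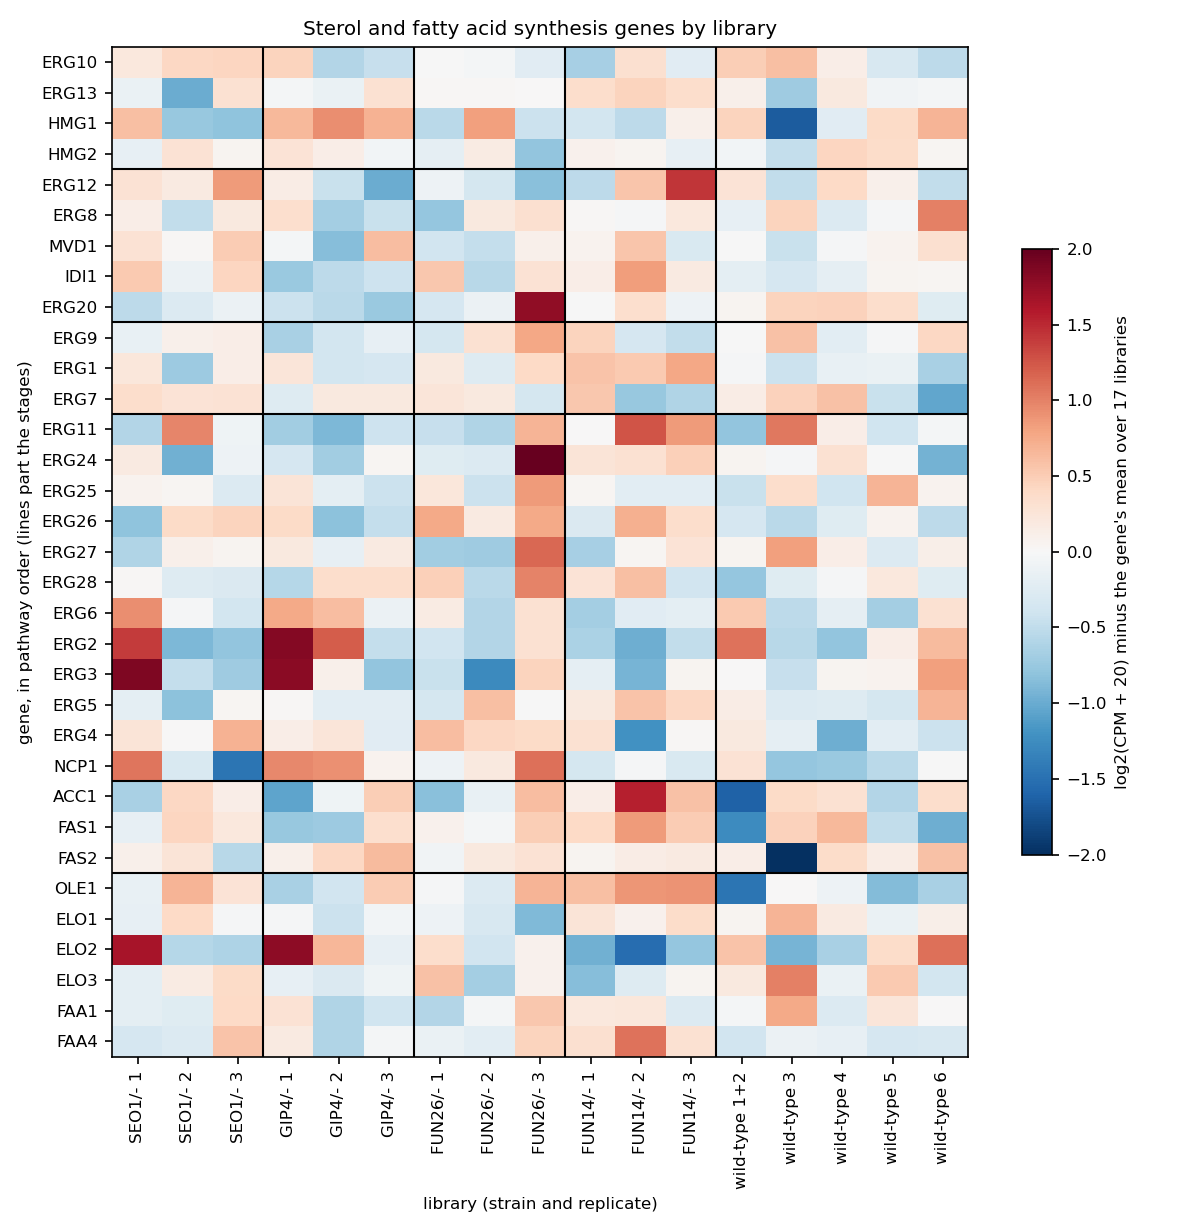
Level of the 33 genes in each of the 17 libraries, as log2(CPM + 20) minus the gene's mean over libraries; rows follow the pathway, lines part its stages and strains, heterozygotes stand left of wild-type, and values beyond 2 in either direction take the end colour. FAS2 in wild-type replicate 3 (163 CPM) is the darkest blue cell, ERG24 in FUN26/- replicate 3 (261 CPM) the darkest red, and FUN14/- is red in all 3 libraries for OLE1 and ERG1.

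No sterol or fatty acid gene passed an adjusted p of 0.05 in any comparison by edgeR's quasi-likelihood test, adjusted over all 2856 ORFs by Benjamini-Hochberg. Against wild-type, 0 of 25 were called in SEO1/- (0.14% of all tested ORFs were), 0 in GIP4/- (0.28%), 0 in FUN26/- (0.21%), 0 in FUN14/- (0.315%) and 0 in the mean of the 4 heterozygotes (0.385%). Each strain against the mean of the other 3 gave 0 of 25 (0% of all tested ORFs in each of the 4 comparisons), and so did the F test among the 4 strains (0%). DESeq2 called 1 of them, OLE1 in FUN14/- against wild-type (1.68% of all tested ORFs), and none in the other comparisons (background 0.245% for SEO1, 0.35% for GIP4, 0.21% for FUN26 and 0.42% for the mean against wild-type, 0.315% for FUN14 against the other strains, 0% for the other 3 strains against the rest, and 0.07% for the F test).

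At an unadjusted p under 0.05 FUN14/- had the most of these genes against wild-type, 5 of 25, beside 16.7% of all tested ORFs. On the higher side were OLE1, ERG1, FAA4 and ACC1 (beside 4.76% of all tested ORFs) and on the lower side ELO2 (beside 11.9%). The count was 1 in SEO1/- (OLE1, with 3.92% of all tested ORFs), 1 in GIP4/- (NCP1, 4.83%), 2 in FUN26/- (ELO1 and ERG4, 4.34%) and 1 in the mean of the 4 strains (OLE1, 6.48%). Against the other 3 strains it was 0 in SEO1/- (2.07%), 5 in GIP4/- (HMG1, ERG2, IDI1, ELO2 and ERG11, 18.3%), 0 in FUN26/- (1.37%) and 5 in FUN14/- (ACC1, ELO2, OLE1, ERG1 and ERG11, 13.4%). The F test gave 2, ERG2 and ELO2, beside 10% of all tested ORFs.

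As a group the genes sat near 0. Their median log2 fold change against wild-type was 0.22 in SEO1/- (16 positive, 9 negative, all tested ORFs 0.01), 0.02 in GIP4/- (15 and 10, all 0.03), 0.03 in FUN26/- (14 and 11, all -0.05) and 0.05 in FUN14/- (13 and 12, all -0.03). These comparisons share the wild-type libraries. By stage, the median in FUN14/- was -0.24 for the 4 genes from acetyl-CoA to mevalonate, 0.35 for the 2 tested genes from there to farnesyl diphosphate, -0.22 for the 3 genes from squalene to lanosterol and -0.25 for the 7 tested genes from lanosterol to ergosterol. It was 0.80 for the 3 fatty acid synthesis genes and -0.03 for the 6 genes of desaturation, elongation and activation.

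**Figure D2:**
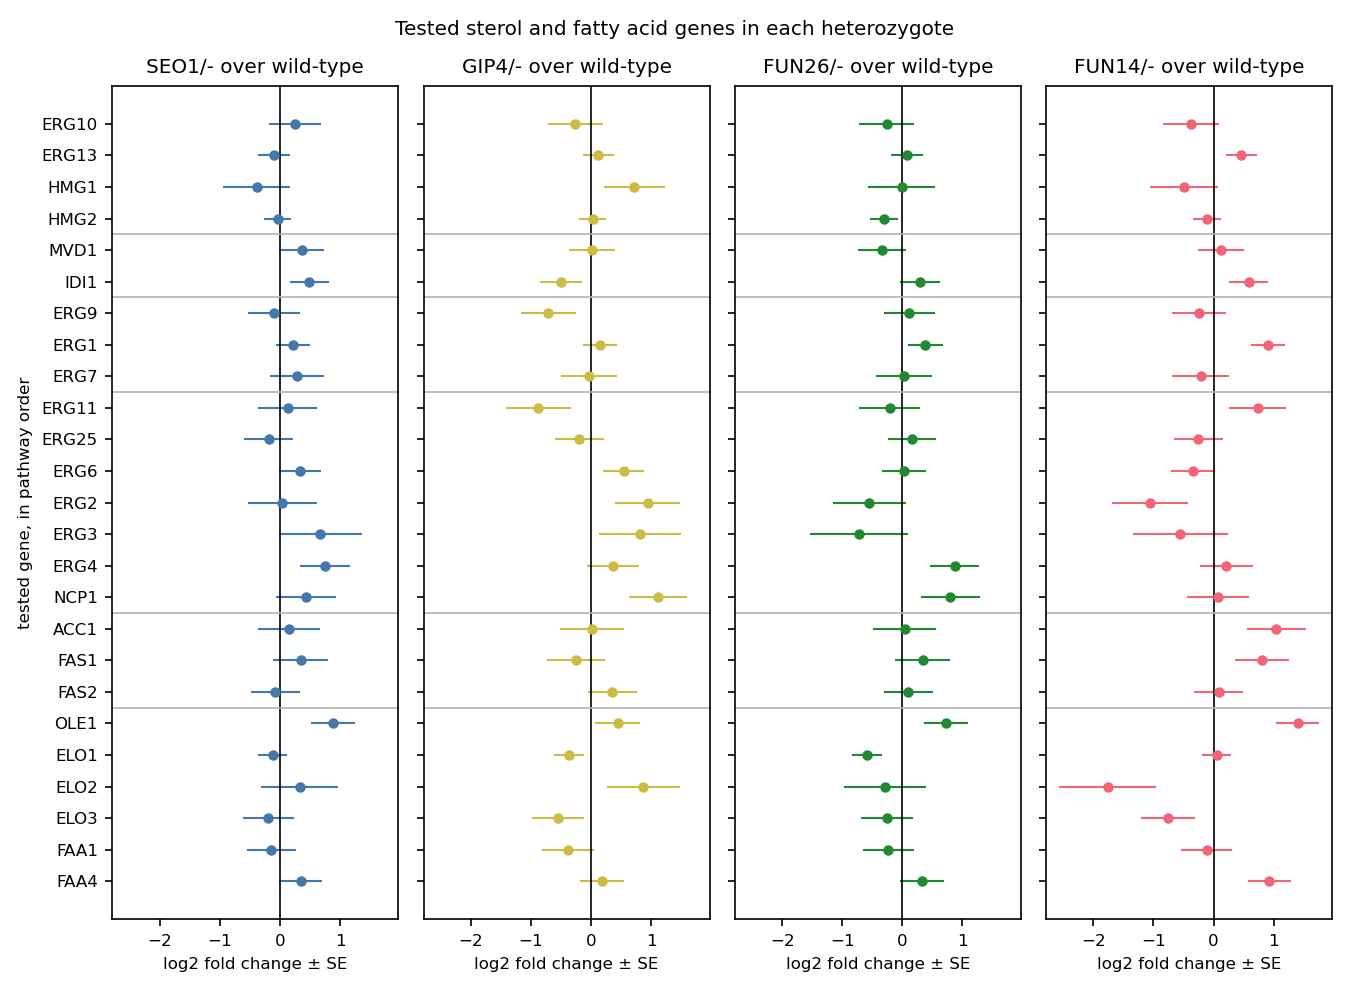
Log2 fold change with its standard error (edgeR) of the 25 tested genes in each heterozygote over wild-type, in pathway order with lines between stages. OLE1 lies right of 0 in all 4 panels, at 0.88, 0.44, 0.72 and 1.40, and ELO2 in FUN14/- lies farthest left, at -1.76.

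OLE1 (YGL055W) encodes the only stearoyl-CoA desaturase of yeast, the enzyme that makes its unsaturated fatty acids. Its level was 573, 700.5 and 712 CPM in FUN14/-, against 123, 376, 344, 194 and 229.8 CPM in wild-type. All 3 FUN14 libraries were above all 5 wild-type libraries. SEO1/- had 332, 608 and 456 CPM, GIP4/- 231, 279 and 539 CPM, and FUN26/- 365, 305 and 609 CPM. Each of these overlapped wild-type, although 7 of the 12 heterozygote libraries were above every wild-type library. The log2 fold change in FUN14/- was 1.40 ± 0.36 (SE, adjusted p = 0.107 by edgeR), and that of the 4 strains together was 0.86 ± 0.28 (adjusted p = 0.610). In a comparison without wild-type libraries, FUN14/- averaged 662 CPM and the other 3 heterozygotes 414 CPM, a log2 difference of 0.71 ± 0.31 (adjusted p = 0.333).

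The OLE1 call depended on the tool and on single libraries. Without wild-type replicate 3, the wild-type library with the highest OLE1, the log2 fold change in FUN14/- was 1.59 and the adjusted p 0.0263 (edgeR), in a setting that called 6.24% of all tested ORFs. Without SEO1/- replicate 1 it was 1.43 with an adjusted p of 0.0289, where 3.69% were called. With no library left out it was called by DESeq2 (adjusted p = 0.0293), and by edgeR with wild-type replicates 1 and 2 as 2 libraries (adjusted p = 0.0496, 0.798% of all tested ORFs called). Over 27 alternative settings it lay between 1.35 and 1.82, and the adjusted p between 0.0131 and 0.382. The counts behind these levels are small: 54, 47 and 55 in the FUN14 libraries, against 12.25, 23, 31, 19.5 and 14 in wild-type.

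The window of OLE1 is shown because that result rests on it. It was rebuilt from assembly R64 by systematic name, since the genome build of the counts is not given. It is on the plus strand at chr7:399961-400160 of assembly R64 (RefSeq), is exonic, has a GC content of 41.0%, and its capitals mark the stop codon.
OLE1: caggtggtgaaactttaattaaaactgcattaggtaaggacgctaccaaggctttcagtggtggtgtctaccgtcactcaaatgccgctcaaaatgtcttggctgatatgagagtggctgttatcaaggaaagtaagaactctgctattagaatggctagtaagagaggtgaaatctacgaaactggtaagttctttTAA

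The 3 enzymes that feed OLE1 were uneven across libraries. ACC1 (YNR016C), the acetyl-CoA carboxylase that makes malonyl-CoA, had 260.1, 730.3 and 362 CPM in FUN14/-, against 62.7, 310.4, 294, 149 and 304 CPM in wild-type. The groups overlapped through FUN14 replicate 1, and replicate 2 stood far above the others. The difference was 1.04 ± 0.49 (adjusted p = 0.298), and 0.53 without FUN14/- replicate 2 (adjusted p = 0.787). ACC1 over the other 9 heterozygote libraries lay between 102 and 369.7 CPM.

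FAS1 (YKL182W), the beta subunit of fatty acid synthase, had 201.7, 283 and 220.0 CPM in FUN14/-, against 50.1, 212, 244, 99.5 and 65.7 CPM in wild-type. Wild-type ranged widely, the groups overlapped, and the difference of 0.80 ± 0.45 had an adjusted p of 0.375. FAS2 (YPL231W) had 1470.5, 1579.8 and 1605 CPM in FUN14/-, against 1554, 163, 1844, 1572 and 2150.5 CPM in wild-type. Apart from the wild-type replicate 3 library, where it had 10 counts, FAS2 lay between 965 and 2209.7 CPM in every library. Its wild-type mean was 1780 ± 280 CPM without that library and 1457 ± 763 CPM with it. The FAS2 difference with the smallest p was in GIP4/-, with 1518, 1899.7 and 2209.7 CPM, and was 0.35 (adjusted p = 0.942). Without wild-type replicate 3 it was 0.07 (adjusted p = 1.00), and with limma on values corrected for the ceiling of 201 counts it was 0.94 (adjusted p = 0.870).

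**Figure D3:**
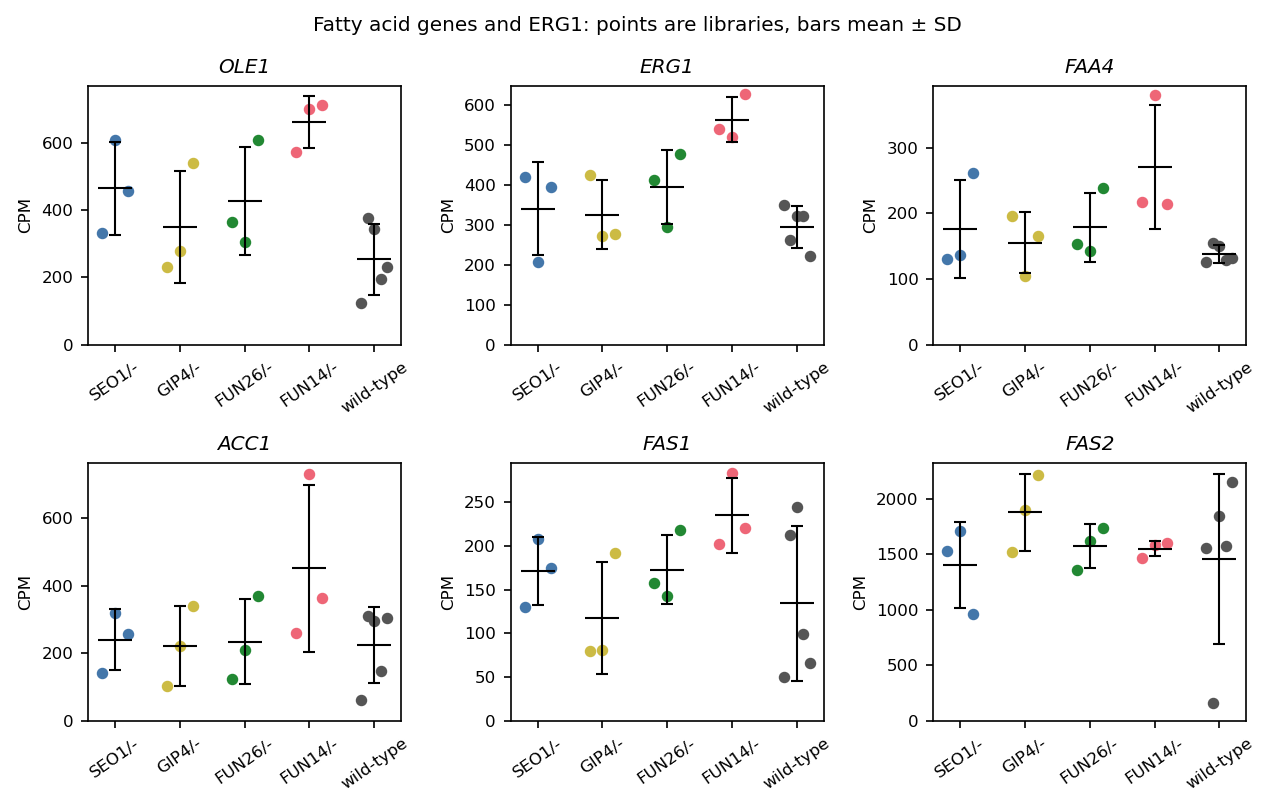
CPM of OLE1, ERG1, FAA4, ACC1, FAS1 and FAS2 by strain, with a point per library, the mean as a long bar and the SD as whiskers (n = 3 per heterozygote, n = 5 for wild-type). The FUN14 points of OLE1, ERG1 and FAA4 lie above every wild-type point, and the lowest FAS2 point is wild-type replicate 3 at 163 CPM.

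FAA4 (YMR246W) and FAA1 (YOR317W) encode the acyl-CoA synthetases that activate long-chain fatty acids. FAA4 had 218, 380.1 and 214 CPM in FUN14/-, against 125, 155, 149.97, 129 and 131 CPM in wild-type. The groups did not overlap, wild-type was tight, and the difference was 0.93 ± 0.35 (adjusted p = 0.202). Libraries of other strains also lay above every wild-type library, the highest being SEO1/- replicate 3 (262 CPM) and FUN26/- replicate 3 (239 CPM). FAA1 had 117, 119 and 77.6 CPM in FUN14/-, against 95.2, 179.7, 77.8, 119 and 98.5 CPM in wild-type. Its groups overlapped in every strain. As rebuilt from R64, the windows of these paralogs were 66% identical with a longest shared run of 12 bases, so most reads could be told apart. They are printed as examples of a paralog pair, FAA1 at chr15:911246-911445 and FAA4 at chr13:761692-761891, both on the plus strand of R64, with the shared run in capitals.
FAA1: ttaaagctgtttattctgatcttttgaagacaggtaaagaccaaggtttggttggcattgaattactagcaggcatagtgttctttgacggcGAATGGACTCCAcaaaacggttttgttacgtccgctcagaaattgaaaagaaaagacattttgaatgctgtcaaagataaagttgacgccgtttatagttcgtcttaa
FAA4: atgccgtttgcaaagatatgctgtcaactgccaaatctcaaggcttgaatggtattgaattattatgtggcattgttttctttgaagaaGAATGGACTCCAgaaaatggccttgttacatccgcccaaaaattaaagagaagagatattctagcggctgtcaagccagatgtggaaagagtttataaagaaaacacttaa

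Of the 3 elongases none was called in any comparison. ELO1 (YJL196C), which extends medium-chain fatty acids, had 572, 487 and 326 CPM in FUN26/-, against 642, 996, 699.9, 557 and 673 CPM in wild-type. The groups overlapped at 1 pair of libraries only, and the difference was -0.59 ± 0.25 (adjusted p = 0.980). ELO1 also had the smallest spread between replicates of all 25 genes, a biological coefficient of variation of 0.194 (8.26th percentile of the tested ORFs).

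ELO2 (YCR034W) makes long fatty acids for sphingolipids and was among the most variable. It had 31.9, 14.9 and 38.8 CPM in FUN14/-, against 130.3, 32.7, 44.4, 109 and 197 CPM in wild-type. Wild-type replicate 3 fell within the FUN14 range, and the difference was -1.76 ± 0.81 (adjusted p = 0.283). All 3 FUN14 libraries were below the other 9 heterozygote libraries, which ran from 45.6 to 328 CPM (difference -2.06 ± 0.75, adjusted p = 0.280). The FUN14 values rest on 3, 1 and 3 counts. ELO3 (YLR372W), which makes the longest chains, had 53.1, 89.4 and 116 CPM in FUN14/-, against 130.3, 245, 99.98, 169 and 82.1 CPM in wild-type, and overlapped. The ELO windows were 50% to 53% identical in pairs.

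The sterol pathway opens with the steps to mevalonate. ERG10 (YPL028W), the acetoacetyl-CoA thiolase, lay between 42.5 and 131 CPM, and every strain overlapped wild-type. ERG13 (YML126C) had 807, 864 and 802 CPM in FUN14/-, against 672, 376, 722, 597 and 607 CPM in wild-type. All 3 FUN14 libraries were above all wild-type libraries and above all other heterozygote libraries. The difference from wild-type was nevertheless 0.46, with an adjusted p of 0.380. Groups that did not overlap, on the higher side, were counted for 5 of 25 genes between FUN14 and wild-type, ERG13, FAA4, IDI1, OLE1 and ERG1, beside 4.9% of all tested ORFs. On the lower side there were 0, beside 3.89%. Against wild-type, SEO1/- and the mean of the 4 strains had no gene without overlap on either side (beside 1.82% higher and 0.7% lower for SEO1/-, and 0.14% and 0.28% for the mean). GIP4/- had none on the higher side (1.47%) and FUN26/- none on the lower side (1.26%). Between FUN14 and the other 3 strains, ERG13 and ERG1 were higher without overlap (2 of 25, beside 1.3%) and ELO2 was lower (1 of 25, beside 1.3%).

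HMG1 (YML075C) and HMG2 (YLR450W) encode the reductases that form mevalonate, the step taken to control the pathway. HMG1 had 159.8, 198 and 165 CPM in GIP4/-, against 135, 16.3, 77.8, 129 and 164 CPM in wild-type. Of the GIP4/- libraries 2 were above the highest wild-type library and 1 just below it, and the difference of 0.72 had an adjusted p of 0.942. Against the other 3 strains the GIP4 difference was 1.01 ± 0.46 (adjusted p = 0.254). HMG2 had 907, 1165 and 587 CPM in FUN26/-, against 995, 735, 1394, 1343 and 1067 CPM in wild-type, a difference of -0.30 (adjusted p = 0.980). The groups overlapped, and the sign was lost with wild-type replicates 1 to 3 alone (1 and 2 counted as 2 libraries), at 0.01. In GIP4 libraries HMG2 was 1252, 1139 and 992 CPM, within the wild-type range. As rebuilt from R64, the windows of the pair were 66% identical, with a longest shared run of 8 bases. They are shown to let a reader see where the copies differ: HMG1 lies on the minus strand at chr13:115734-115933 and HMG2 on the plus strand at chr12:1035565-1035764 of R64, with the shared run in capitals.
HMG1: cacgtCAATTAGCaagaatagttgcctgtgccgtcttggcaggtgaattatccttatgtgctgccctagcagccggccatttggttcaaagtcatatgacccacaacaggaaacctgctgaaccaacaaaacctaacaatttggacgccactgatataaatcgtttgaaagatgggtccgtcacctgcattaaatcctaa
HMG2: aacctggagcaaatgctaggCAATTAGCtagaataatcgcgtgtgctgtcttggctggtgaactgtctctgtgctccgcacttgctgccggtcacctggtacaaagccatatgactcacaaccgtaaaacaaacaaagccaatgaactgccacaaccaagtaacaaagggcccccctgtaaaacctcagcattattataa

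Between mevalonate and farnesyl diphosphate only IDI1 and MVD1 passed the count filter. IDI1 (YPL117C), the isopentenyl diphosphate isomerase, had 107, 128 and 139 CPM in GIP4/-, against 165, 147, 167, 199.0 and 197 CPM in wild-type. It was the 1 of the 25 tested genes whose GIP4 libraries were all below wild-type, beside 2.49% of all tested ORFs. The GIP4 difference from the other 3 strains was -0.95 ± 0.32 (adjusted p = 0.200). In FUN14/- IDI1 had 212, 358 and 220.0 CPM, all above wild-type. Libraries of other strains also lay above every wild-type library. The highest of them were FUN26/- replicate 1 (286 CPM) and SEO1/- replicates 1 and 3 (284.5 and 266 CPM). MVD1 (YNR043W), the mevalonate diphosphate decarboxylase, had 178, 144 and 209 CPM in SEO1/-, against 140.4, 98.0, 139, 149 and 181 CPM in wild-type, and overlapped (difference 0.36, adjusted p = 0.995). ERG12 (YMR208W), ERG8 (YMR220W) and ERG20 (YJL167W), which encode the mevalonate kinase, the phosphomevalonate kinase and the farnesyl diphosphate synthase, were too low to test. ERG12 had 69 counts over the 12 heterozygote libraries and 31 over the 6 deposited wild-type libraries, with replicates 1 and 2 both added. By the same sums ERG8 had 31 and 18, and ERG20 had 42 and 27. ERG20 stood at 26.6, 23.2 and 17.4 CPM in GIP4/-, against 45.1, 65.3, 66.7, 59.7 and 32.8 CPM in wild-type, and every GIP4 library was below wild-type. ERG8 stood at 31.9, 29.8 and 38.8 CPM in FUN14/-, against 25.1, 49.01, 22.2, 29.9 and 82.1 CPM in wild-type, and at 9.86 to 44.4 CPM in the other heterozygotes, so all groups overlapped.

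ERG9, ERG1 and ERG7 carry farnesyl diphosphate to lanosterol. ERG1 (YGR175C), the squalene epoxidase and the first oxygen-using step, had 541, 522 and 628 CPM in FUN14/-, against 351, 261, 322, 323 and 222 CPM in wild-type. The FUN14 libraries were the 3 highest of all 17, above the other heterozygotes too, which lay between 208 and 478 CPM. The difference from wild-type was 0.91 ± 0.28 (adjusted p = 0.155), and that from the other 3 strains 0.66 ± 0.25 (adjusted p = 0.291). ERG1 was not called in any of the 27 alternatives of the comparison with wild-type, in which its adjusted p ran from 0.0617 to 0.487.

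ERG9 (YHR190W), the squalene synthase, had 44.4, 58.1 and 69.6 CPM in GIP4/-, against 80.2, 131, 66.7, 79.6 and 115 CPM in wild-type. The groups overlapped at 1 library of each, and the difference of -0.71 had an adjusted p of 0.942. ERG7 (YHR072W), the lanosterol synthase, had 119, 112 and 114 CPM in SEO1/-, against 100.3, 131, 144, 59.7 and 32.8 CPM in wild-type, and the SEO1 libraries lay inside the wild-type range (adjusted p = 0.995).

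The steps from lanosterol to ergosterol held genes that varied widely between libraries of 1 strain. ERG2 (YMR202W), the sterol isomerase, had 861, 546 and 157 CPM in GIP4/-, against 501, 147, 122, 249 and 361 CPM in wild-type. In SEO1/- it had 628, 112 and 122 CPM, in FUN26/- 168, 143 and 283 CPM, and in FUN14/- 138, 104 and 155 CPM. A few libraries of several strains were thus high and the rest low. ERG3 (YLR056W), a sterol desaturase, followed with 326, 48.0 and 38.0 CPM in SEO1/- and 311, 81.3 and 34.8 CPM in GIP4/-, against 75.2, 49.01, 77.8, 79.6 and 148 CPM in wild-type.

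SEO1/- replicate 1 and GIP4/- replicate 1 were among the 3 highest of the 17 libraries for all of ERG6, ERG2, ERG3, NCP1 and ELO2. The first principal component is the main axis along which libraries differed over all tested ORFs, with 44.8% of the variance. On it these libraries lay at -24.0 and -32.3, in a range of -32.3 to 38.7. The share of all tested ORFs with the same 2 libraries high is not given here. ERG6 (YML008C), the sterol methyltransferase, had 889, 448 and 349 CPM in SEO1/- and 781, 709 and 418 CPM in GIP4/-, against 667, 310.4, 399.9, 279 and 566 CPM in wild-type. NCP1 (YHR042W), the reductase that passes electrons to Erg11, had 373, 360.2 and 191 CPM in GIP4/-, against 226, 98.0, 99.98, 119 and 181 CPM in wild-type. The groups overlapped at GIP4 replicate 3, and the difference was 1.11 ± 0.48 (adjusted p = 0.929). Between replicates, ERG3, the elongase ELO2 and ERG2 were the 3 most variable of the 25 genes, with biological coefficients of variation of 0.612, 0.557 and 0.523, at the 95.0, 92.0 and 89.5 percentiles of the tested ORFs. The median was 0.274 over the 25 genes and 0.308 over all tested ORFs.

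The GIP4 difference from the other 3 strains was 1.46 ± 0.49 for ERG2 (adjusted p = 0.200) and 1.44 ± 0.56 for ELO2 (adjusted p = 0.214). Both values rested on single libraries. Without SEO1/- replicate 1 ERG2 had 1.86 with an adjusted p of 0.00526, and ELO2 1.90 with an adjusted p of 0.0121 (edgeR), and 12.6% of all tested ORFs were called in that setting. Without GIP4/- replicate 1 ERG2 had 0.85 (adjusted p = 0.603) and ELO2 0.61 (adjusted p = 0.768).

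**Figure D4:**
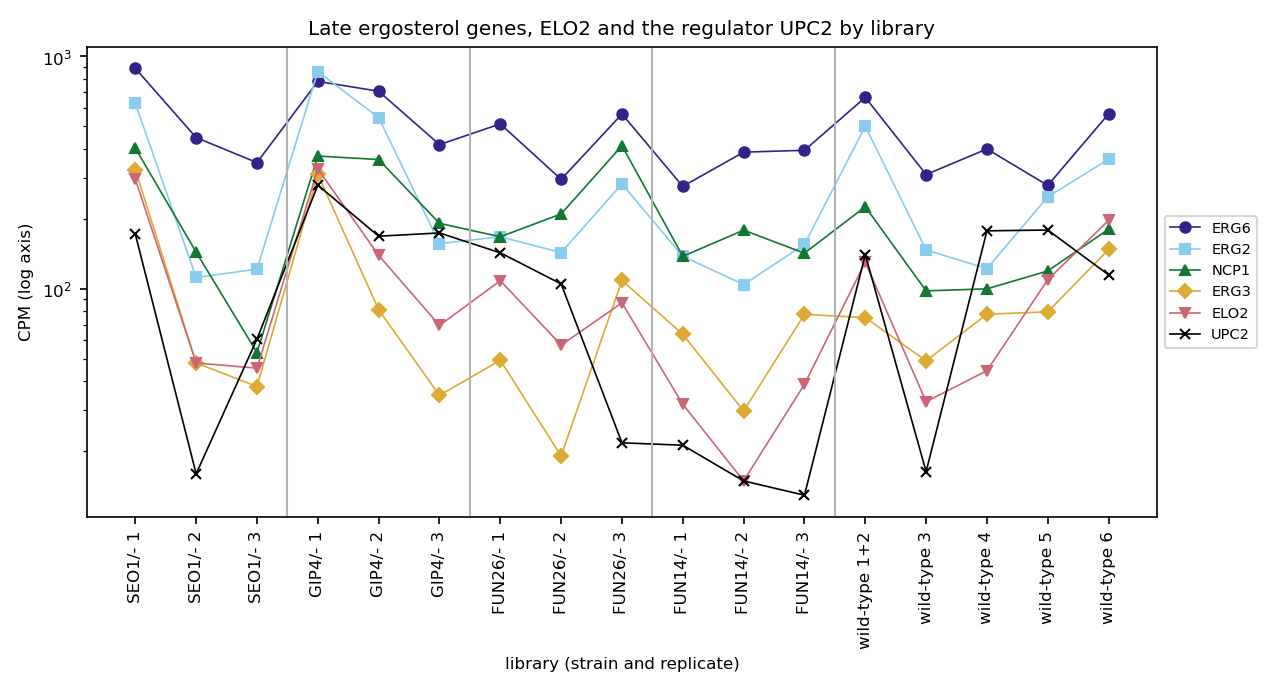
CPM on a log axis of ERG6, ERG2, NCP1, ERG3, ELO2 and the regulator UPC2 in each library, strains parted by vertical lines and heterozygotes left of wild-type; lines only join the libraries of a gene. ERG6, ERG2, NCP1, ERG3 and ELO2 all stand high in SEO1/- replicate 1 and GIP4/- replicate 1, and UPC2 is low in the 3 FUN14 libraries, at 21.2, 14.9 and 12.9 CPM, as it is in SEO1/- replicate 2 (15.99 CPM) and wild-type replicate 3 (16.3 CPM).

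Other late genes did not share that pattern. ERG11 (YHR007C), the lanosterol demethylase that azole drugs inhibit, had 97.7, 81.3 and 122 CPM in GIP4/- and 169.9, 432 and 324 CPM in FUN14/-, against 90.2, 376, 189, 124 and 164 CPM in wild-type. The 4 libraries with the highest ERG11, from 324 to 432 CPM, were FUN14/- replicates 2 and 3, wild-type replicate 3 and SEO1/- replicate 2, and ERG2 in them lay between 104 and 155 CPM. On the first principal component over all tested ORFs they lay at 28.8, 22.2, 38.7 and 27.9, toward its other end. Low ERG2 was not confined to these 4 libraries, which ranked 10 to 17 of 17 for ERG2. FUN26/- replicate 2 ranked 12 for ERG2 and had low ERG11 as well, at 105 CPM. Against the other 3 strains ERG11 differed by 1.06 ± 0.42 in FUN14/- (adjusted p = 0.299) and by -1.09 ± 0.50 in GIP4/- (adjusted p = 0.251). ERG4 (YGL012W), which encodes the last reductase of the pathway, had 158, 134 and 130.5 CPM in FUN26/-, against 113, 81.7, 38.9, 79.6 and 65.7 CPM in wild-type. It was the 1 gene of 25 with every FUN26 library above wild-type, beside 2% of all tested ORFs, and its difference was 0.87 ± 0.41 (adjusted p = 0.980). ERG25 (YGR060W), a sterol methyl oxidase, ranged from 85.2 to 239 CPM with all groups overlapping.

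ERG24, ERG26, ERG27, ERG28 and ERG5 were too low to test. Summed wild-type counts in this paragraph are over the 6 deposited libraries, with replicates 1 and 2 both added. ERG24 (YNL280C), a sterol reductase, had 57.5 counts over the 12 heterozygote libraries and 25.5 in wild-type. ERG26 (YGL001C), a sterol decarboxylase, had 71 and 22. ERG5 (YMR015C), a sterol desaturase, had 48 counts in the heterozygotes and 23 in wild-type. ERG27 (YLR100W) had 27 and 17. Its window lies inside the ORF YLR101C on the other strand and shares 112 bases with the window counted for that ORF, and whether the counting used strand is not given in the sources used here, so the ERG27 counts are uncertain. It stood at 10.6, 29.8 and 38.8 CPM in FUN14/-, against 30.1, 65.3, 33.3, 19.9 and 32.8 CPM in wild-type. ERG28 (YER044C) had 26 counts in the heterozygotes and 8 in wild-type, at 31.9, 44.7 and 12.9 CPM in FUN14/-, against 5.01, 16.3, 22.2, 29.9 and 16.4 CPM in wild-type. ERG26 stood at 108.4, 66.8 and 108.7 CPM in FUN26/-, against 40.1, 32.7, 44.4, 59.7 and 32.8 CPM in wild-type, and these groups did not overlap. Of the 8 untested genes 1 was higher in FUN26/- without overlap, beside 1.59% of the 1888 untested ORFs that had as many counts (34 to 100), and 1 was lower in GIP4/-, ERG20, beside 2.97%. In FUN26/- replicate 3, ERG24 stood at 261 CPM and ERG20 at 196 CPM, each above all other values of its gene, in the library with the fewest counts (52293.5).

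The libraries also parted by the GC content of the windows as rebuilt from R64, which was looked at after the values were seen. Over 2601 ORFs, the rank correlation of a window's GC content with a library's deviation from the mean was negative in all 3 FUN14 libraries (-0.130, -0.301 and -0.355), and it was positive in wild-type (0.318, 0.191, 0.183 and 0.352) apart from replicate 3 (-0.264). In GIP4/- it was 0.300, 0.346 and 0.0928, in SEO1/- 0.14, -0.049 and -0.36, and in FUN26/- -0.0958, 0.23 and -0.257. Within every group the lowest value was that of replicate 3. With a correction for window GC content, 0 of 25 genes were called in any comparison by edgeR, and 0 to 4 had an unadjusted p under 0.05. In FUN14/- against wild-type these were 4 of 25, beside 16.2% of all tested ORFs, and over the comparisons that background ran from 1.79% to 16.3%. With it OLE1 in FUN14/- was 1.40 with an adjusted p of 0.0926, ERG1 0.78 (adjusted p = 0.146), ACC1 0.77 (adjusted p = 0.411) and ELO2 -1.90. ERG13 in FUN14/- was 0.21 with it and 0.46 without it, and HMG1 in GIP4/- against the other 3 strains was 0.61 with it and 1.01 without it, no longer at an unadjusted p under 0.05. Beyond this correction, the part of window GC content in these differences was not tested.

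Genes that act beside the pathway were read from lists chosen by name. Of 11 regulators of lipid genes 6 were tested, of 19 other sterol and isoprenoid genes 8, of 18 other fatty acid genes 4, of 20 phospholipid and triglyceride genes 10, and of 11 markers of poor sterol or oxygen supply 6. In each of these lists 0 genes were called in any of the 10 comparisons by edgeR or DESeq2. At an unadjusted p under 0.05, a list held 0 to 3 genes in a comparison, and the share of all tested ORFs ran from 1.37% to 18.3%. The 3 were of the 6 tested markers of poor sterol or oxygen supply, in the mean of the 4 heterozygotes against wild-type, beside 6.48%. There CYC7 was higher (0.98), and ANB1 (-1.59) and TIR1 (-0.87) were lower. The regulator with the smallest p was UPC2, the sensor of low sterol. It had 171.9, 15.99 and 60.8 CPM in SEO1/-, 279.6, 168.5 and 174 CPM in GIP4/-, 142.9, 105 and 21.7 CPM in FUN26/- and 21.2, 14.9 and 12.9 CPM in FUN14/-, against 140.4, 16.3, 178, 179 and 115 CPM in wild-type. Only wild-type replicate 3 and SEO1 replicate 2 reached down to the FUN14 libraries, and FUN26 replicate 3 (21.7 CPM) lay just above FUN14 replicate 1 (21.2 CPM). These low values rest on very few counts: 14.9 CPM in FUN14 replicate 2 is the level that 1 count of ELO2 gave there. The FUN14 difference from wild-type was -2.85 ± 0.79 (adjusted p = 0.126), and the GIP4 difference from the other 3 strains 1.99 ± 0.52 (adjusted p = 0.170). Whether they passed the threshold turned on single libraries. In the settings whose backgrounds stand beside OLE1 and ERG2, the FUN14 difference was -3.08 without wild-type replicate 3 (adjusted p = 0.0263, edgeR). Without SEO1/- replicate 1 it was -2.83 (adjusted p = 0.0340), and the GIP4 difference 2.27 (adjusted p = 0.00491).

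The promoters were searched in R64 from 250 bases before to 50 after each ORF start, on both strands, for 3 short cores. TCGTATA, a core bound by Upc2 and Ecm22, was found in 3 of 33 promoters, those of ERG13, ERG8 and ERG2, or 9.09%, against 4.15% of 6001 yeast promoters. CATGTG, a core bound by Ino2 and Ino4, was found in 3, those of ERG27, FAS2 and ELO2, or 9.09% against 6.93%. ATTGTT, a core bound by the oxygen-linked repressor Rox1, was found in 14, or 42.4% against 35.2%. These shares describe letters in a window and name no binding site. The stretches that hold the Upc2 core, and the pair in the OLE1 promoter that holds the Rox1 core, are shown with the core in capitals, read on the strand of the gene. A core in the other orientation appears as its reverse complement. They lie at chr13:20731-20760 and chr13:20618-20647 for ERG13 (minus strand), chr13:712153-712182 for ERG8, chr13:667341-667370 for ERG2, and chr7:398490-398519 and chr7:398397-398426 for OLE1 (plus strand), all in R64.
ERG13: cggaataagctTCGTATAtacaatagaaaa
ERG13: gggctattaatTATACGAgtgtgttgaaag
ERG8: atgcgtttttcTATACGAgatctaaaagga
ERG2: aaccacggcccTCGTATAagccgcaaggaa
OLE1: ttgattcatttATTGTTctatttccatctt
OLE1: taatagtagttAACAATatatgcagcaaat
Of the 3 genes with the Upc2 core, in FUN14/-, the strain with the lowest mean UPC2, ERG13 averaged 825 CPM against 595 CPM in wild-type, ERG8 33.5 CPM against 41.6 CPM in wild-type, and ERG2 132.5 CPM against 276 CPM in wild-type. Neither the ERG13 nor the ERG2 difference from wild-type was called. SEO1/- replicate 2 and wild-type replicate 3 had UPC2 as low as FUN14/-, and ERG13 had its lowest levels there, at 304 and 376 CPM. Whether the level of UPC2 bears on these genes was not tested.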

How the data were processed

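The data are estimated counts that the authors deposited as 1 table, of 6606 ORFs by 18 libraries, over the last 200 bases of each ORF. Bowtie 0.12.5 was used, per the submitters' processing notes, and the genome build is not given in the sources used here. No value exceeded 201, so strong genes are compressed. Values were rounded to whole numbers. The main test was edgeR 4.0.16 under R 4.3.3 (TMM factors, filterByExpr with a minimum count of 10, quasi-likelihood test, 1 mean per group, all groups in 1 fit). Each strain was set against wild-type and against the mean of the other 3, the 4 strains together against wild-type, and the strains among themselves by an F test. Alternatives were DESeq2 1.42.0 as test and as size factors, limma 3.58.1 on values corrected for the ceiling, no filter, other sets of libraries, and a replicate block. Window GC content and the DESeq2-scaled levels were added after seeing the data. The fit was tested on simulated data.

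The members, gene lists and tests were chosen with earlier results of these data known. All 33 members are named. Those given library by library were up to 3 per stage with the smallest p, the 3 highest and 3 lowest levels, and paralogs. ERG3, ERG6 and ERG11 were added after their values were seen. ERG20 in GIP4/- and ERG26 in FUN26/- were given by library since they did not overlap wild-type. Symbols and sequences came from RefSeq R64 by systematic name, which paired 5918 ORFs. Only 896 ORFs had the same coordinates there, 5 of the 33 among them, so no coordinate of the table is printed.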

Additional observations from a re-analysis of the deposited data

How the results depend on the processing

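The number of these genes called stayed at 0 for SEO1/-, GIP4/- and FUN26/- and for the mean of the 4 strains against wild-type, and for SEO1/-, FUN26/- and FUN14/- against the other 3 strains, in every alternative run. In FUN14/- against wild-type it became 1 (OLE1) with DESeq2 (adjusted p = 0.0293) and with wild-type replicates 1 and 2 as 2 libraries (adjusted p = 0.0496). Leaving out 1 library at a time gave 0 to 1 there, 0 to 2 for GIP4/- against the other 3 strains, and 0 to 1 for the F test, where ERG2 was called without SEO1/- replicate 1. In all 3 cases the cause was not tested. The log2 fold change of HMG2 in FUN26/- was 0.0108 with wild-type replicates 1 to 3 alone (1 and 2 counted as 2 libraries), in place of -0.30. Of these genes' log2 fold changes under alternatives 733 kept their direction and side of the threshold, 8 passed it and 1 changed sign. Of 28 such differences 10 moved by over 1.5 times when some single library was left out. ERG13 in FUN26/- averaged 641 CPM on DESeq2 size factors, a move larger than its small SD.

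The labels do not say that a replicate number marks a shared culture or day. Deviations of same-numbered libraries correlated at a median of 0.219 over 30 pairs (-0.489 to 0.573, 19 of them over 0.1), and those of differently numbered ones at -0.117 over 60 pairs (15 over 0.1). By mean correlation, 10 of 15 libraries were closest to libraries of their own number. The same-numbered pairs were all positive for replicates 1 (0.055 to 0.573) and for replicates 3 (0.016 to 0.437), and the negative ones were among replicates 2. The rule used here asked that every pair be over 0.1, so the numbers were not taken to pair the libraries. Whether libraries of a number share an effect was not tested, and the main fit has no term for it. These correlations, and the fit that follows, counted wild-type replicates 1 and 2 as 2 libraries, although they differed less than sampling noise would make them. With the number as a block, over libraries 1 to 3 of each group, the FUN14 count against wild-type was 2, OLE1 (1.82, adjusted p = 0.0131) and ACC1 (1.81, adjusted p = 0.0444), beside 5.22% of all tested ORFs, and the other counts stayed at 0. Under it UPC2 in GIP4/- against the other 3 strains (1.97, adjusted p = 0.0350) and CYC7 in FUN14/- against wild-type (1.98, adjusted p = 0.0137) were also called. Depth limits the low genes: the 8 untested ones had 34 to 100 counts over the 18 deposited libraries.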

Other observations

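Among genes beside the pathway, BTS1, which makes geranylgeranyl diphosphate from farnesyl diphosphate, had 84.9, 134 and 129 CPM in FUN14/-, against 50.1, 16.3, 72.2, 49.7 and 49.2 CPM in wild-type. All 3 FUN14 libraries were above wild-type, and the difference was 1.24 ± 0.44 (edgeR adjusted p = 0.181). In SEO1/- the BTS1 difference was 0.99 ± 0.44 (adjusted p = 0.995). CYC7, a cytochrome c isoform made when oxygen is scarce, had 244, 328 and 492 CPM in FUN14/-, against 60.2, 163, 255.5, 149 and 82.1 CPM in wild-type. The groups overlapped at 1 library of each, and the difference was 1.30 ± 0.42 (adjusted p = 0.159). In FUN26/- CYC7 had 375, 296 and 304 CPM, all above wild-type, with a difference of 1.185 ± 0.42 (adjusted p = 0.875). In the mean of the 4 strains it was 0.98 ± 0.33 (adjusted p = 0.610). CYC7 was the gene with the smallest p of its list of markers of poor sterol or oxygen supply, of which 2 of 6 tested were positive in FUN14/- (median log2 fold change -0.46). ANB1, a translation factor gene repressed by oxygen, had 42.5, 44.7 and 12.9 CPM in FUN14/-, against 82.7, 0, 178, 413 and 49.2 CPM in wild-type. The groups overlapped through wild-type replicate 3, and the difference was -2.14 ± 1.02 (adjusted p = 0.298). For ANB1 it was -2.335 ± 1.02 in SEO1/- (adjusted p = 0.995) and -2.27 ± 1.02 in FUN26/- (adjusted p = 0.980). In the mean of the 4 strains it was -1.59 ± 0.63 (adjusted p = 0.6655). In GIP4/- ANB1 ranged from 52.2 to 417 CPM.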
